A study of Mus musculus with 4 samples.

Results

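Proliferating endothelial cells were the dividing cells of the vessel lining in the subdural meninges of the young mouse cerebellum, and 326 of the 38722 cell barcodes kept from 4 single-cell RNA libraries met their definition. A kept barcode had at least 500 genes, at least 1000 UMIs (unique molecular identifiers, each marking 1 captured RNA molecule) and at most 10% mitochondrial UMIs. An endothelial cell had at least 3 of the 6 genes Cldn5, Pecam1, Cdh5, Kdr, Flt1 and Egfl7 detected, at least 5 UMIs summed over them, and no UMI of the leukocyte gene Ptprc. A proliferating cell also had at least 3 of the 6 genes Mki67, Top2a, Cenpf, Birc5, Ube2c and Hmmr detected, and a cell with at least 2 UMIs over the granule neuron genes Barhl1, Tlx3 and Neurod1 was left out. Values of the 4 libraries are listed in 1 order throughout, the controls NdpWT replicate 1 and replicate 2 before the knockouts NdpKO replicate 1 and replicate 2. The members numbered 25, 159, 71 and 71. Another 1967 endothelial cells fell outside the proliferation genes, 252, 900, 336 and 479.

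The series compared NdpWT with NdpKO mice on a C57BL/6 background, 2 libraries each, to profile the meningeal cells with and without Ndp. Every animal, controls included, carried 1 copy of Neurod2-SmoA1, an activated form of the Hedgehog transducer Smoothened driven by the Neurod2 promoter, which is active in the granule neuron lineage; no group without it was present. The label fields give the age as postnatal days 6 to 8 and the collection protocol as days 7 to 9, and 1 library pooled 5 cerebella from 3 litters. The libraries came from 4 runs, each control run matched by litter to a knockout run, and the dura and choroid plexus were left out. Which part of Ndp was deleted is not given in the labels, and no label says that replicates were separate beyond their run, so p-values measure the spread between these libraries.

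Endothelial cells in the developing brain divide to build the capillary network while they acquire the blood-brain barrier. Ndp encodes norrin, a secreted ligand of Fzd4; Lrp5 or Lrp6 and the tetraspanin Tspan12 complete the receptor. Binding stabilises beta-catenin and turns on genes of the barrier in brain and retinal endothelium. Dividing cells pass through S phase, when DNA is copied and replication histones are made, and then through G2 and mitosis, when the genes of the spindle and of chromosome segregation are transcribed.

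Before any comparison, 1 library stood apart from the other 3. In NdpKO replicate 1, 44.1% of barcodes were kept against 64.8% to 67.0%, 21.8% were over the mitochondrial limit against 7.58% to 10.4%, and the kept barcodes had a median of 14435 UMIs against 7300.5 to 9612.5. Members held 607654, 2371089, 3858664 and 1352566 UMIs, with a median per cell of 18700, 11258, 43874 and 13855. Other endothelial cells were shallower in each library, with medians of 10768, 7561, 21619.5 and 9852. Libraries shared 15 to 48 barcodes per pair, and no member was among them.

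By the same 6 endothelial genes that chose the cells, 246 of the 326 members (75.5%) had a high endothelial content. These cells had at least 10 UMIs of the 6 endothelial genes per 10000 UMIs, with a median of 67.8, and are called endothelial-rich below; this limit was set after the values were seen. The median endothelial-rich member held 77 endothelial UMIs, 2.66 UMIs per 10000 of a 12-gene fibroblast list and 0.401 per 10000 of a 13-gene mural list. The other 80 members (24.5%) had a median of 10 endothelial UMIs in 33694, or 2.98 per 10000, together with 126 fibroblast UMIs and 13.1 mural UMIs per 10000. They were 7, 25, 32 and 16 cells in the 4 libraries, and they held 46.4% of all UMIs of the members, so the name endothelial is in doubt for them. Among barcodes marked as fibroblasts by at least 100 fibroblast-list UMIs per 10000, 4.41% to 10.3% passed the endothelial definition, with a median of 1.51 to 2.30 endothelial UMIs per 10000 over all such barcodes. At the limit of the endothelial definition itself, 13 proliferating cells held exactly 5 endothelial UMIs and 17 more, just outside, held 4; their fibroblast medians were 105 and 122 per 10000. Every result below is therefore given for the members as defined and, where it differs, for the endothelial-rich cells alone.

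**Figure D1:**
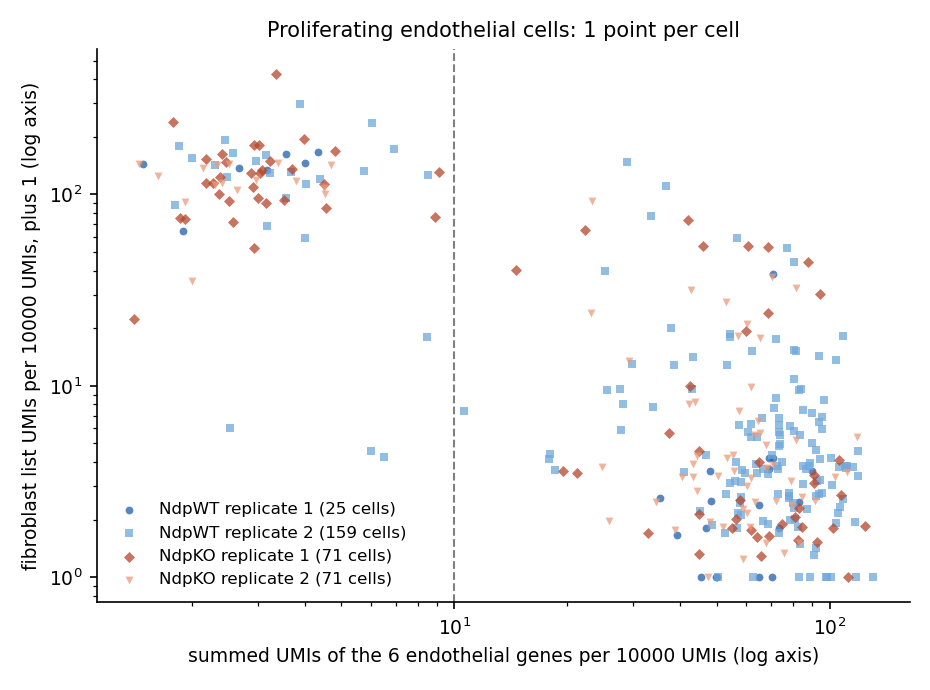
Each point is 1 of the 326 proliferating cells, with summed UMIs of the 6 endothelial genes per 10000 on the x axis and summed UMIs of the fibroblast list per 10000, plus 1, on the y axis, both on log axes; symbols mark the 4 libraries and the dashed line marks 10 per 10000. The 246 cells right of the line form 1 group with low fibroblast counts for the most part, and the 80 cells on the left have a median of 126 fibroblast UMIs per 10000.

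The proliferation genes were the ones that chose the cells, so their levels describe the choice and are not tested. Mki67, which codes for the Ki-67 protein of dividing nuclei, stood at 328, 444, 428 and 592 CPM (UMIs per 1000000 in the summed cells, scaled between sums by the TMM method) in the members. In the other endothelial cells it stood at 6.36, 24, 3.70 and 10.5 CPM. Top2a, the topoisomerase that untangles copied chromosomes, stood at 424, 521, 528 and 746 CPM in the members and at 14.7, 22.3, 6.36 and 13.5 CPM in the others. Cenpf, Birc5, Ube2c and Hmmr, which act at the kinetochore, the centromere, the anaphase-promoting complex and the spindle, ranged from 132 to 653 CPM in the members and from 0.578 to 18.6 CPM in the others. The members were thus far above the remaining cells for all 6 genes in all 4 libraries, which the definition itself fixes.

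Both groups were chosen by the endothelial genes of the definition, so the detection of these genes was fixed in advance and their levels are described without a test. In the members Cldn5, the barrier claudin, stood at 1574, 3405, 1540 and 1728 CPM, and in the others at 2481, 4111, 2059 and 3234 CPM. Pecam1, an adhesion molecule of endothelial junctions, stood at 147, 245, 216 and 185 CPM in the members, and Cdh5, the vascular cadherin, at 358, 396, 419 and 383 CPM. Kdr and Flt1, both receptors for VEGF, ranged from 247 to 586 CPM, and Egfl7, a secreted protein of the endothelium, from 309 to 696 CPM. Over the 6 genes the median log2 difference between members and others was -0.45, and it was -0.28 in endothelial-rich cells.

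Most genes of late division share a short promoter element, and it is shown here for members of the cell cycle lists because these genes moved together with the definition. The cell cycle genes homology region, CHR, was searched as TTTGAA on both strands in RefSeq promoter windows of GRCm38.p6, from 250 bases before to 50 bases after each start. It was in the windows of 5 of the 6 proliferation genes of the definition, of 23 of 31 matched genes of the G2 and mitosis list (74.2%), of 3 of 23 matched S phase genes (13%), and of 20.2% of all 27025 genes with a window. The sites of E2F factors, searched as TTTCCCGC, TTTCGCGC, TTTGCCGC and TTTGGCGC on both strands, were in 10 of 23 S phase windows (43.5%), in 1 of 31 G2 and mitosis windows and in 2.60% of all. A CCAAT box was in 24 of the 31, in 14 of the 23 and in 41.1% of all genes. A match is a description of letters only. The 6 stretches of 150 bases just before the start that follow were chosen because they hold the element and lie in no GENCODE exon; they read 5′ to 3′ on the gene's strand, with CHR in capitals in the first 4 and the E2F letters in capitals in the last 2, either orientation.
Mki67, chr7:135716380-135716529, minus strand: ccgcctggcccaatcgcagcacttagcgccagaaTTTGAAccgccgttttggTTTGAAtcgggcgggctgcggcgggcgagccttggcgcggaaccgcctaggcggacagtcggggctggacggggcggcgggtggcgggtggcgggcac
Top2a, chr11:99024190-99024339, minus strand: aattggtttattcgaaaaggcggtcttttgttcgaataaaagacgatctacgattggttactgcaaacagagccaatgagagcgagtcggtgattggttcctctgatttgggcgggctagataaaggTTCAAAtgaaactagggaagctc
Ckap2l, chr2:129297213-129297362, minus strand: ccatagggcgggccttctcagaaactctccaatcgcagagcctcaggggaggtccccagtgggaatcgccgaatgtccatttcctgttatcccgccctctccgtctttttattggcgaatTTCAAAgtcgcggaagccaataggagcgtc
Kif11, chr19:37376232-37376381, plus strand: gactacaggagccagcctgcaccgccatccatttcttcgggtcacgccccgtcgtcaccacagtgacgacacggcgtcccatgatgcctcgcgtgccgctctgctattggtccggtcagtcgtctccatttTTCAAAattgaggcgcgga
Cdc6, chr11:98908001-98908150, plus strand: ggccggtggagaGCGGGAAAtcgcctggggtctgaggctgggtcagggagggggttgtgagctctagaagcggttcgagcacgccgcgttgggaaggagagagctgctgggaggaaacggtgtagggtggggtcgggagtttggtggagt
Mcm5, chr8:75109359-75109508, plus strand: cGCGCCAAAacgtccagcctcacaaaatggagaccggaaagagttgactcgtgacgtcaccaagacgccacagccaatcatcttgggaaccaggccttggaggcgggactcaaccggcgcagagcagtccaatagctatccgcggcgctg
Counted from the start as 1 with no 0, the printed bases of Mki67 hold CHR at -116 and -98, and those of Top2a, Ckap2l and Kif11 at -23, -30 and -19. In Cdc6 and Mcm5, which license replication origins and unwind DNA in S phase, the printed bases hold the E2F letters at -138 and -149. Beyond the printed capitals, the windows also hold CHR at -179 in Top2a and at 42 in Ckap2l, and E2F letters at -153 in Mcm5.

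The wider cell cycle programme followed the 6 genes, and since the cells were chosen by division it is described without a test. All 34 measured genes of the G2 and mitosis list were above 0 in members against other endothelial cells, with a median log2 difference of 4.74, and 4.35 in endothelial-rich cells. Ckap2l, a spindle protein, stood at 105, 110, 84.3 and 167 CPM in the members and at 2.21, 4.20, 1.39 and 2.34 CPM in the others. Kif11, the kinesin that pushes spindle poles apart, stood at 86.2, 89.4, 98.3 and 116 CPM against 3.87, 3.96, 1.5 and 2.00 CPM. Nusap1, Anln, Nuf2 and Plk1, of the spindle, the cleavage furrow, the kinetochore and mitotic entry, had log2 differences of 5.31, 5.39, 5.54 and 5.70.

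All 30 S phase genes were above 0 as well, with a smaller median log2 difference of 2.23 in both sets of cells. Cdc6 stood at 27.0, 20.2, 16.3 and 18.6 CPM in the members against 2.49, 4.20, 3.01 and 1.67 CPM in the others. Mcm5, a subunit of the replicative helicase, stood at 59.1, 59.3, 50.8 and 58.7 CPM against 8.30, 15.2, 8.90 and 10.4 CPM. Rrm2, a subunit of the enzyme that makes deoxynucleotides, had the largest difference among the S phase genes at 4.81. All 13 measured replication histones were above 0, with a median of 2.49, led by Hist1h3c at 4.61 and Hist1h1b at 4.42. These 10x libraries capture polyadenylated RNA for the most part, and most replication histone messages lack a poly(A) tail, so their levels are not those of all such RNA.

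Genes that govern entry into the cycle did not move as a block. Of 21 measured, 14 were above 0 and 7 below, with a median log2 difference of 0.34, or 0.27 in endothelial-rich cells. The late-cycle transcription factors E2f8, Mybl2 and Foxm1 had differences of 5.86, 4.29 and 3.46, and Cdkn2c, an inhibitor of Cdk4 and Cdk6, of 2.65. Cdkn1c, the inhibitor p57, stood in endothelial-rich members at 70.7, 172, 143 and 118 CPM against 322, 304, 312 and 331 CPM in the other endothelial-rich cells, with each library's members below its others. Btg1 and Btg2, both linked to growth arrest, had differences of -0.62 and -0.65, and Ccnd2, a cyclin of G1, of -0.88, while Cdk4 stood at 0.66. Cdkn1a and Cdkn1b were at 0.03 and 0.27 in endothelial-rich cells.

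The level of the lists climbed with the number of the 6 proliferation genes a cell had. Over endothelial-rich cells with 0, 1, 2, 3, 4, 5 and 6 genes detected, the G2 and mitosis list summed to 437, 479, 737, 1375, 2697, 4506 and 7827 UMIs per 1000000. The S phase list summed to 422, 475, 647, 1248, 2030, 1962 and 2049 UMIs per 1000000, so it was level from 4 genes on while the G2 and mitosis list went on climbing. The histones summed to 289, 308, 393, 516, 856, 1538 and 2494 UMIs per 1000000. Cells just inside the limit (3 genes, 73 endothelial-rich cells) and just outside it (2 genes, 196 endothelial-rich cells) thus lay next to each other on a graded scale. Depth moved along the scale, from a median of 7762 UMIs in endothelial-rich cells with no gene detected to 20041.5 in those with 6, and its part in the trend was not tested.

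**Figure D2:**
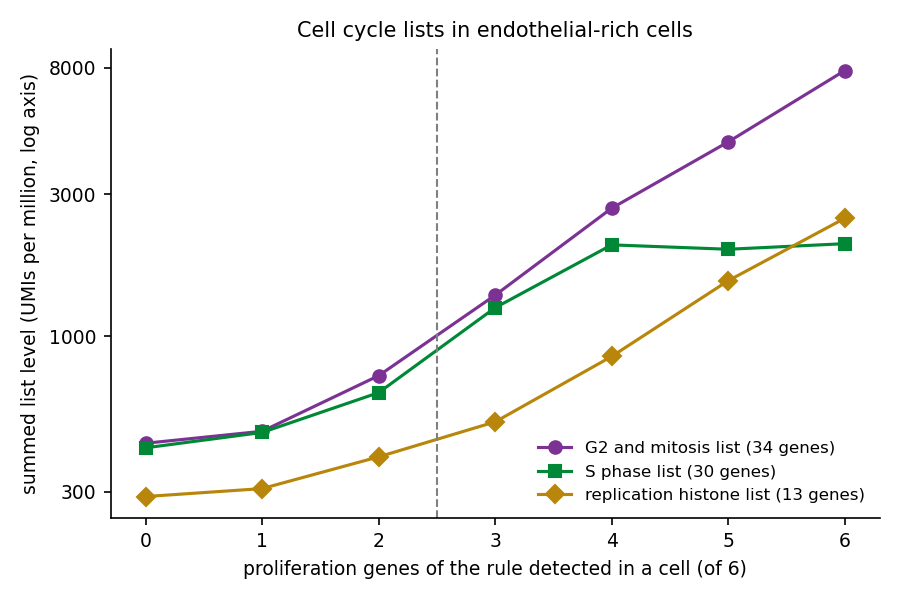
Summed levels of the G2 and mitosis, S phase and replication histone lists (UMIs per 1000000, log axis) in endothelial-rich cells grouped by how many of the 6 proliferation genes were detected, pooled over the 4 libraries; the dashed line marks the limit between other and proliferating cells. The G2 and mitosis list goes from 437 to 7827, while the S phase list stays between 1962 and 2049 from 4 genes on.

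Some cells that should not divide also met the proliferation part of the definition. Neurons with at least 3 UMIs of the neuronal gene Grin2b and none of Atoh1, a gene of dividing granule precursors, had at least 3 of the 6 proliferation genes in 6.70%, 9.02%, 7.4% and 7.91% of barcodes, at median depths of 9313, 6387.5, 12303 and 7872 UMIs. Among the neurons that had at least 3 of the genes, all 6 were detected in 24.6%, 18.2%, 34.8% and 31.6%, and among the members, which were chosen for the same 3 genes and were deeper, in 40.0%, 34%, 50.7% and 46.5%. A share of cells with 3 genes must be read against the level in these neurons, and where their proliferation UMIs came from was not tested. Leaving out the cells with granule neuron genes removed 142 of 468 endothelial barcodes with the proliferation genes (30.3%) and 152 of 2119 without them (7.17%).

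The proliferating share of endothelial cells did not differ between genotypes beyond the spread of the libraries. It was 9.03% in NdpWT replicate 1 (95% exact binomial interval 5.93% to 13%), 15% in NdpWT replicate 2 (12.9% to 17.3%), 17.4% in NdpKO replicate 1 (13.9% to 21.5%) and 12.9% in NdpKO replicate 2 (10.2% to 16%); these intervals cover counting error only. The genotypes overlapped, since NdpKO replicate 2 lay between the control libraries. The means were 12.0% ± 4.23 (SD, n = 2) in NdpWT and 15.2% ± 3.21 (SD, n = 2) in NdpKO, a difference of 3.16 percentage points (exact permutation test, two-sided, p = 0.667; the smallest p this design allows is 0.33). In endothelial-rich cells the shares were 8.14%, 14.5%, 14.9% and 11.8%, with a difference of 2.02 percentage points (exact permutation test, two-sided, p = 0.667).

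Depth differed between libraries, so each cell was also thinned to 4000 UMIs, leaving out 45, 207, 51 and 94 shallower endothelial cells. The shares then became 4.74%, 9.62%, 11.0% and 11.0%, and both knockout libraries stood above both control libraries by a mean of 3.78 percentage points (exact permutation test, two-sided, p = 0.33, the smallest possible). Thinned to 2000 UMIs, the shares were 4.05%, 6.92%, 7.11% and 6.79%, and the genotypes overlapped again, with a difference of 1.46 percentage points (exact permutation test, two-sided, p = 0.667). With 4 of the 6 genes required the shares were 5.05%, 10.5%, 13.5% and 10.5%, and the genotypes did not overlap (exact permutation test, two-sided, p = 0.33), though NdpKO replicate 2 (95% exact binomial interval 8.11% to 13.4%) exceeded NdpWT replicate 2 by less than counting error. The direction turned where 2 of the 6 genes were enough to call a cell proliferating, with a difference of -1.10 percentage points. Without NdpWT replicate 1, which had the lowest share, the difference was 0.163 percentage points, without NdpKO replicate 1 it was 0.889, and without NdpWT replicate 2 or NdpKO replicate 2 it was 6.15 or 5.43.

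**Figure D3:**
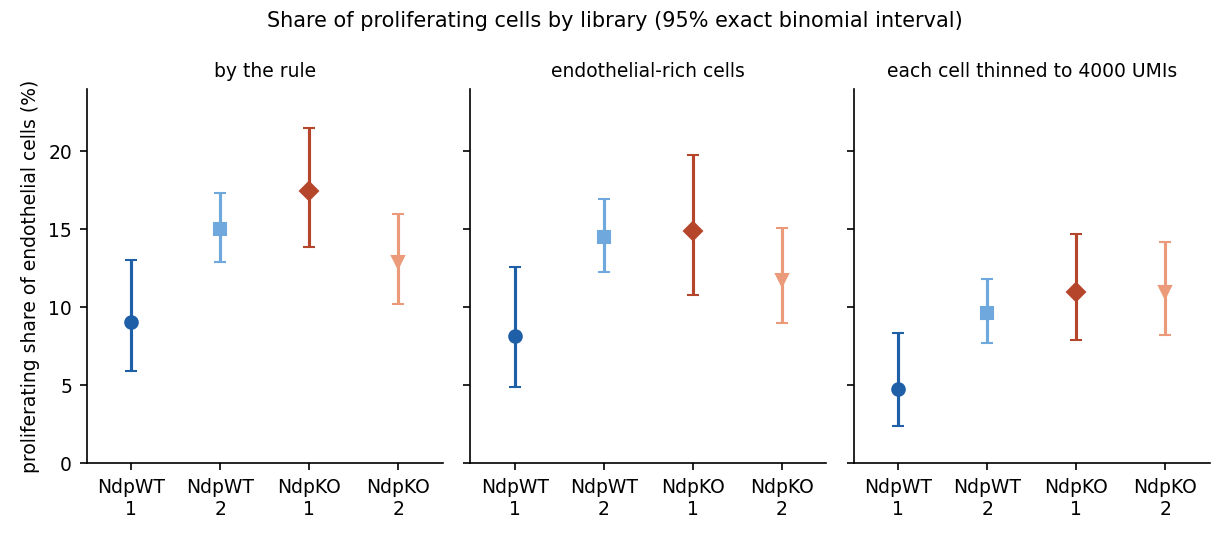
Share of endothelial cells that were proliferating in each library (y axis, %), by the definition, in endothelial-rich cells and with each cell thinned to 4000 UMIs; bars are 95% exact binomial intervals and cover counting error only. NdpWT replicate 1 is lowest in each panel, and the genotypes do not overlap in the third panel alone.

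Outside the cell cycle, arterial genes were among those lower in dividing than in other endothelial cells. Arteries are lined by endothelium that expresses Notch and ephrin-B2 genes, connexins and elastic matrix. All 18 measured genes of the arterial list were below 0 in members against other endothelial cells, with a median log2 difference of -1.19, against -0.01 over all 11980 genes tested. Of the 18, 6 passed as lower, Efnb2, Hey2, Dll4, Vegfc, Unc5b and Nrp1 (edgeR quasi-likelihood test with library as a term, Benjamini-Hochberg adjusted p under 0.05). Over all genes tested 5.63% passed as lower and 10.9% as higher. In all 4 libraries 18 of the 18 were lower, as were 17.4% of all genes tested, while 19.9% of all genes tested were higher in all 4. In the same cells 4 of 12 macrophage genes and 1 of 12 fibroblast genes passed as lower and none as higher, and the part of such RNA in the arterial values was not tested.

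In endothelial-rich cells, where 6.98% of 10403 genes passed as lower and 8.07% as higher, 6 of 18 arterial genes passed as lower and the median was -1.14. The 6 were Sox17, Hey1, Hey2, Dll4, Vegfc and Unc5b, and 17 of the 18 were lower in 4 of 4 libraries, as were 20.6% of all genes tested, with 16.5% of all higher in 4 of 4. Dll4, the Notch ligand of arteries and tip cells, stood at 63.6, 67.6, 102 and 64.8 CPM in the dividing cells and at 112, 94.8, 123 and 106 CPM in the others. Each library's dividing cells were below its other cells, and the log2 difference was -0.50 ± 0.11 (SE; edgeR adjusted p = 0.00707). Unc5b, a netrin receptor, stood at 14.1, 30.4, 61.9 and 27.2 CPM against 63.7, 52.4, 97.2 and 85.4 CPM, with a log2 difference of -1.0 ± 0.18 (SE; edgeR adjusted p = 0.00139). Sox17, a transcription factor of arterial endothelium, stood at 173, 198, 284 and 199 CPM against 349, 254, 362 and 409 CPM, with a log2 difference of -0.64 ± 0.12 (SE; edgeR adjusted p = 0.00409). Nrp1, a co-receptor for VEGF and semaphorins, was the exception, at 0.22 in NdpWT replicate 1.

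The size of the arterial difference varied between libraries, and 12 of the 18 genes did not pass, among them Gja4 and Eln. Gja4, the arterial connexin 37, stood at 77.8, 136, 229 and 32.4 CPM in dividing endothelial-rich cells against 334, 263, 329 and 336 CPM in the others, with log2 ratios by library of -2.09, -0.94, -0.52 and -3.34 (edgeR adjusted p = 0.228). Eln, the elastin of arterial walls, stood at 1647, 2216, 6075 and 514 CPM against 3390, 3432, 8668 and 5173 CPM (edgeR adjusted p = 0.318). The ratio was farthest below 0 in NdpKO replicate 2 and closest to 0 in NdpKO replicate 1 for both genes. The count of arterial genes that passed moved with the libraries used: in endothelial-rich cells it was 14 without NdpKO replicate 2, 10 without NdpKO replicate 1, 4 without NdpWT replicate 1 and 2 without NdpWT replicate 2. All measured arterial genes were below 0 in each of those fits.

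Counted by cell, the share with arterial genes was lower in dividing cells in 3 of the 4 libraries, by the most in NdpKO replicate 2. Counting error of these shares was not estimated, and NdpWT replicate 1 had only 15 dividing cells. Among endothelial-rich cells thinned to 4000 UMIs, at least 2 of 7 arterial genes were detected in 2 of 15 dividing cells against 35.4% of the others in NdpWT replicate 1, and in 24.8% of 117 against 33.1% in NdpWT replicate 2. The shares were 51.4% of 35 against 51.1% in NdpKO replicate 1 and 10.6% of 47 against 41.7% in NdpKO replicate 2. Unthinned, they were 22.2% against 36.5%, 27.6% against 33.6%, 61.5% against 53.8% and 16.4% against 44.4%. NdpKO replicate 1, the library with the fewest kept barcodes, was thus the one in which dividing cells were arterial as often as the others.

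**Figure D4:**
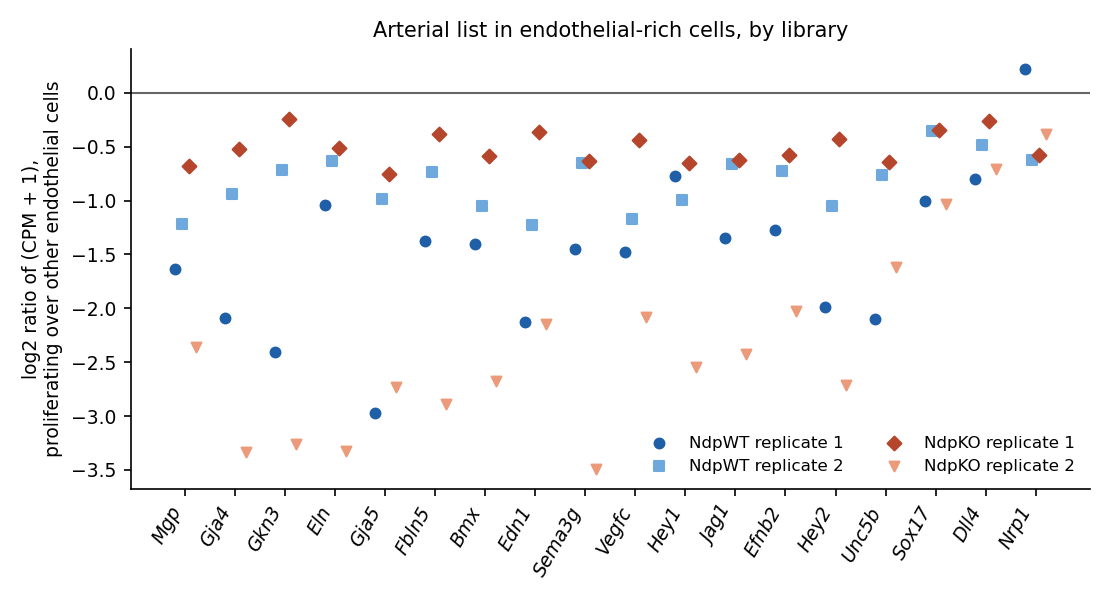
Log2 ratio of CPM plus 1 between proliferating and other endothelial-rich cells (y axis) for each of the 18 arterial genes, with 1 point per library. All points lie below 0 except Nrp1 in NdpWT replicate 1 at 0.22; NdpKO replicate 2 has the lowest ratio for most genes and NdpKO replicate 1 stays between -0.24 and -0.76.

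Receptors of vessel growth and general endothelial genes were modestly lower in the summed counts of dividing cells. The 6 endothelial genes of the definition were lower too, with medians of -0.45 and, in endothelial-rich cells, -0.28. Cells under 10 endothelial UMIs per 10000 held 46.4% of the members' UMIs and 35.6% of the others'. The part of endothelial content in the values below was not tested. Of 22 measured genes of the VEGF and angiogenic receptor list, 13 passed as lower and none as higher, against 5.63% and 10.9% of all genes tested, with a median log2 difference of -0.48. In endothelial-rich cells 13 of 21 passed as lower, against 6.98% of all genes, with a median of -0.39, but 3 passed without NdpWT replicate 2. S1pr1, the receptor for sphingosine 1-phosphate that steadies vessel walls, stood at 113, 94.1, 174 and 129 CPM in dividing endothelial-rich cells against 162, 135, 202 and 207 CPM, a log2 difference of -0.47 ± 0.10 (SE; edgeR adjusted p = 0.00478). Notch4 fell by 0.55, Id1, a target of BMP signals, by 0.46 and Tie1, an orphan receptor of the angiopoietin system, by 0.33 on the log2 scale in the same cells. Aplnr, the apelin receptor, was at 0.33 and did not pass. Of 14 endothelial identity genes, 7 passed as lower and none as higher, with a median of -0.50 by the definition and -0.31 in endothelial-rich cells, where Emcn and Esam were at -0.06 and -0.08 and did not pass.

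Immediate early genes, which cell dissociation is known to induce, were lower too. Of 18 genes of the dissociation response list, 11 passed as lower and 1 as higher, against 5.63% and 10.9% of all genes tested, with a median log2 difference of -0.44. In endothelial-rich cells 12 passed as lower and 1 as higher, against 6.98% and 8.07% of all genes. The list includes Btg2, which the cell cycle lists also hold. Egr1 stood at 110, 166, 201 and 172 CPM in dividing endothelial-rich cells against 270, 259, 317 and 339 CPM, lower in 4 of 4 libraries by 0.83 ± 0.10 on the log2 scale (SE; edgeR adjusted p = 4.39e-05). Fos stood at 244, 245, 624 and 298 CPM against 713, 459, 924 and 949 CPM (edgeR adjusted p = 0.0164). The exception was Hsp90aa1, a stress-induced chaperone, which rose by 0.74 ± 0.09 (SE; edgeR adjusted p = 2.92e-05), from 269, 416, 337 and 400 CPM in the others to 558, 604, 563 and 646 CPM.

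Of 20 measured genes of class I MHC antigen presentation and the interferon response, 6 passed as lower in dividing cells and none as higher, against 5.63% and 10.9% of all genes tested. In endothelial-rich cells 5 passed as lower and none as higher, against 6.98% and 8.07% of all genes. Class I MHC molecules present peptides to T cells. H2-K1 stood at 84.8, 169, 231 and 214 CPM in dividing endothelial-rich cells against 230, 243, 352 and 355 CPM, a log2 difference of -0.73 ± 0.11 (SE; edgeR adjusted p = 0.000359). B2m, the shared light chain, fell by 0.31. Of 14 measured glycolysis genes, 5 passed as higher and Pfkl alone as lower, against 10.9% and 5.63% of all genes tested. In endothelial-rich cells 4 of 13 passed as higher, against 8.07% of all genes, and none as lower, Pfkl being at -0.32 (edgeR adjusted p = 0.106). Gapdh stood at 629, 623, 527 and 803 CPM against 449, 428, 421 and 510 CPM in endothelial-rich cells, a log2 difference of 0.50 ± 0.08 (SE; edgeR adjusted p = 0.0005). Gapdh, Pgk1, Tpi1 and Pkm passed in both sets of cells.

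Barrier genes and norrin targets were mixed between dividing and other cells. Of 28 blood-brain barrier genes 1 passed as higher and 2 as lower, with a median log2 difference of -0.08, and in endothelial-rich cells 2 passed each way. Slc38a5, a glutamine transporter that the venous list also holds, was higher in dividing cells in 4 of 4 libraries, at 640, 565, 199 and 240 CPM against 425, 447, 106 and 155 CPM in endothelial-rich cells, a log2 difference of 0.60 ± 0.09 (SE; edgeR adjusted p = 0.00037). Of 14 Wnt and norrin targets, 2 passed as higher, Nkd1, a feedback inhibitor of Wnt signals, at 0.48 and Ccnd1, the G1 cyclin, at 0.47; Foxq1 passed as lower at -0.66. In endothelial-rich cells the balance of calls turned, with 1 of 13 targets higher, Nkd1 at 0.65, and 2 lower, Foxq1 at -0.47 and Sox17, which the arterial list also holds; Ccnd1 was at 0.45 and did not pass. Ccnd1 also belongs to the cell cycle lists, so its change is not a finding of its own. All 10 genes of the norrin receptor complex were below 0, 3 of them past the test, Fzd4, Fzd6 and Reck, at -0.30, -0.60 and -0.68. In endothelial-rich cells Fzd6 alone passed.

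Marker RNA of other cell types also differed between dividing and other cells. In endothelial-rich cells 8 of 10 measured macrophage genes passed as lower, against 6.98% of all genes tested, with a median log2 difference of -1.48. These are summed counts, and the median cell did not show the decrease, at 0.679 macrophage UMIs per 10000 in dividing cells against 0.567 in the others. By library the medians were 1.09, 0.724, 0.543 and 0.494 against 0.932, 1.03, 0.456 and 0.0. What part the limit on Ptprc and the greater depth of the dividing cells had was not tested. Lyz2 stood at 14.1, 8.45, 6.31 and 2.59 CPM against 89.5, 27.4, 10.7 and 18.0 CPM, and Mrc1, the mannose receptor, at 7.07, 11.3, 3.16 and 6.48 CPM against 46.3, 27.1, 13.9 and 32.7 CPM. With cells called proliferating from 2 genes, the differences of Lyz2 and Mrc1 turned to 1.12 and 0.13 in the cells by the definition. Of 11 measured fibroblast genes 5 passed as lower in endothelial-rich cells, Col1a1, Col1a2, Lum, Aldh1a2 and Ogn. Other genes with the largest decrease in endothelial-rich cells were Gper1, an estrogen receptor on the membrane, at 0, 9.58, 5.05 and 3.89 CPM against 25.3, 30.2, 22.4 and 33.1 CPM, Alpl, the tissue alkaline phosphatase, at 0, 4.51, 8.84 and 6.48 CPM against 12.2, 21.4, 29.9 and 27.9 CPM, and Lmcd1, at 17.7, 31.6, 39.1 and 16.8 CPM against 55.9, 77.1, 91.9 and 89.1 CPM. Genes outside the lists with the largest increase, among them Pimreg, Depdc1a, Esco2, Stil and Iqgap3, are known mitotic or replication genes, so they describe the definition.

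Between genotypes, few genes passed the test in the members as defined, and the larger change among the 2 that did was a decrease of Ly75. Ndp itself had no UMI in the members of any library, which allows up to 4.94, 1.27, 0.778 and 2.22 CPM. Over all kept barcodes Ndp stood at 2.07 and 1.40 CPM in NdpWT and at 0.398 and 0.472 CPM in NdpKO, so the libraries carry the labels' direction; whether these UMIs lie inside the deleted part is not known. Of 10796 genes tested in the members, 2 passed as lower in NdpKO, or 0.0185%, and none as higher, or 0.0% (edgeR quasi-likelihood test, Benjamini-Hochberg adjusted p under 0.05). With no adjustment 521 genes had p under 0.05, and DESeq2 called 26 genes in all.

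Ly75 (chr2:60292103-60383303, minus strand), an endocytic receptor also known as DEC-205, stood at 95.3 and 92.0 CPM in NdpWT and at 11.4 and 13.4 CPM in NdpKO members. The genotypes did not overlap, and the log2 change was -2.94 ± 0.26 (SE; edgeR adjusted p = 0.00483, lower in both knockout libraries). In endothelial-rich members it stood at 204, 122, 27.5 and 22.2 CPM, and in the other endothelial-rich cells at 141, 105, 18.9 and 24.2 CPM. Car4 (chr11:84957786-84966044, plus strand), a carbonic anhydrase on the surface of capillaries, stood at 214 and 231 CPM in NdpWT and at 45.3 and 67.7 CPM in NdpKO members, a log2 change of -2.01 ± 0.25 (SE; edgeR adjusted p = 0.0462). Its adjusted p passed 0.05 by little, and the call was lost with Scrublet calls removed, with 4 of 6 genes required, with library totals not scaled by TMM and with all 8 sums in 1 fit. The call of Ly75 was lost with 4 of 6 genes required and with all 8 sums in 1 fit.

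Endothelial-rich members, with the 80 members of low endothelial content set aside, gave more calls from fewer cells. The limit is on endothelial UMIs only, so some of the cells kept still held many fibroblast UMIs. A cell of NdpWT replicate 2 held 146 per 10000, and a cell of NdpKO replicate 2 held 90.9. Of 9250 genes tested 5 passed as higher (0.0541%) and 16 as lower (0.173%) in NdpKO. Selenop, the selenium carrier, stood at 2317, 1883, 561 and 740 CPM, Fth1, the heavy chain of ferritin, at 9540, 8017, 3560 and 2756 CPM, and Gsta4, a glutathione transferase, at 283, 289, 60.8 and 86.0 CPM. Both knockout libraries were below both control libraries for each, with log2 changes of -1.69 ± 0.24, -1.47 ± 0.23 and -1.99 ± 0.25 (SE; edgeR adjusted p = 0.00481, 0.00989 and 0.00266). Ddc, the aromatic amino acid decarboxylase, went from 17.9 and 23.4 CPM to 1.28 and 1.30 CPM, and Serpine2, a protease inhibitor, from 35.9 and 39.4 CPM to 8.32 and 7.82 CPM. Car14 and Car2, both carbonic anhydrases like Car4, fell by 2.20 and 1.80, Pomc, the hormone precursor, fell by 2.07, and Tpd52l1 fell by 1.96 on the log2 scale. One of the annotated copies of Ccl19 fell by 4.05, and since near-identical copies exist its counts are uncertain.

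Plvap (chr8:71497765-71511752, minus strand), the diaphragm protein of leaky vessels, was the opposite of the barrier genes. It stood at 0 and 12.0 CPM in NdpWT and at 64.0 and 80.8 CPM in NdpKO endothelial-rich members, a log2 change of 2.86 ± 0.45 (SE; edgeR adjusted p = 0.0209, higher in both knockout libraries). In the members as defined it stood at 0, 9.85, 26.4 and 46.9 CPM and did not pass (edgeR adjusted p = 0.798). Exoc3l2, another gene of permeable endothelium, had no UMI in NdpWT and 14.7 and 13 CPM in NdpKO endothelial-rich members, and missed the threshold (edgeR adjusted p = 0.0505). Meis2, a homeobox transcription factor, stood at 0, 3.43, 37.1 and 22.2 CPM, Gask1b at 10.8, 16.6, 70.4 and 45.6 CPM and Fam167b at 14.3, 8.58, 39.7 and 86.0 CPM. Mt1, a metallothionein, rose by 2.37 in endothelial-rich members, while in the members as defined its knockout and control libraries overlapped at 261, 29.5, 182 and 132 CPM and its direction turned without NdpWT replicate 2 or NdpKO replicate 1. In endothelial-rich members its call was lost without NdpKO replicate 1, at 1.81 (edgeR adjusted p = 0.159), and with the replicate number as a block, at 2.11 (edgeR adjusted p = 0.0848). The calls of Meis2, Gask1b, Car14 and Pomc were lost in those same 2 fits, those of Pomc, Serpine2 and Fam167b without NdpWT replicate 2, and those of Ddc and Serpine2 with the block. Plvap, Car2, Car4, Ly75, Gsta4, Slc38a5, Slc7a1 and Tpd52l1 passed in endothelial-rich members with the block. DESeq2 shared 10 of the 21 edgeR calls in endothelial-rich members. It tested 3504 genes there, against 9250 with edgeR, and gave no adjusted p for Mt1.

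Most blood-brain barrier genes lay below 0 in the knockout members, though few passed the test. Of 28 measured, 26 were below 0 with a median log2 change of -0.76, against 0.01 over all genes tested; Car4 alone passed. In endothelial-rich members 26 of 28 were below 0 with a median of -0.71, and 3 passed, Car4 at -1.74, Slc38a5 at -1.46 and Slc7a1, an arginine transporter, at -1.37. In 20 of the 28 both knockout libraries lay below both control libraries, a state that 15.6% of all genes tested shared, and 16.5% of all genes lay above. In endothelial-rich members it was 18 of 28, against 15.9% below and 17.4% above over all genes tested. DESeq2 called 7 of the 28 as lower in the members as defined. Without NdpKO replicate 1, 10 passed, and 13 in endothelial-rich members.

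The knockout libraries disagreed with each other on several transporters. Slc16a1, the lactate transporter of brain capillaries, stood at 827, 599, 432 and 167 CPM in dividing endothelial-rich cells and at 760, 585, 88.9 and 99.8 CPM in the others, both scaled together. Tfrc, the transferrin receptor, stood at 463, 368, 262 and 109 CPM in dividing cells and at 420, 312, 54.1 and 56.9 CPM in the others. Slco1c1, the thyroid hormone transporter, stood at 364, 309, 270 and 38.9 CPM in dividing cells and at 619, 383, 61.8 and 107 CPM in the others. In NdpKO replicate 1 the dividing cells were thus nearer to the controls than the other endothelial cells were, with log2 ratios of dividing to other cells of 2.27, 2.26 and 2.11 for Slc16a1, Tfrc and Slco1c1. In NdpKO replicate 2 the same ratios were 0.74, 0.92 and -1.44. The test of the difference between the genotype effects did not pass for any of them (edgeR adjusted p = 1.00 for each).

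Targets of Wnt and norrin signals showed the same lean. Of 14 measured targets 11 were below 0 in the members, with a median log2 change of -0.68, and none passed; in endothelial-rich members 11 of 13 were below 0 with a median of -0.83, and none passed. DESeq2 called 2 as lower and 1 as higher in the members as defined and none in endothelial-rich members. Apcdd1, a membrane-bound Wnt inhibitor that Wnt itself induces, stood at 283, 334, 134 and 124 CPM in the members, and both knockout libraries were below both control libraries by a log2 change of -1.26 ± 0.20 (SE; edgeR adjusted p = 0.0989). Axin2, the general feedback target, stood at 40.1, 41.5, 33.4 and 46.9 CPM and overlapped. The receptor side leaned the other way: 7 of 10 genes of the norrin receptor complex were above 0 with a median of 0.25, and none passed; without NdpKO replicate 1 the median was -0.15. Of 12 measured genes of permeable endothelium 9 were above 0, with a median of 0.46, none of them past the test; without NdpKO replicate 1 it was 0.08.

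The other endothelial cells gave more calls, from far more UMIs. By the definition 2 of 13342 genes tested were higher (0.015%) and 21 lower (0.157%) in NdpKO, and in endothelial-rich cells 137 of 11910 were higher (1.15%) and 178 lower (1.49%). Of the 28 barrier genes 4 passed as lower, or 12 in endothelial-rich cells, with medians of -0.74 and -0.88. Of the Wnt and norrin targets 2 of 16 passed as lower, or 7 of 14 in endothelial-rich cells. Plvap rose by 2.54 ± 0.27 (SE; edgeR adjusted p = 0.00179) and Apcdd1 fell by 1.81 ± 0.13 (SE; edgeR adjusted p = 3.46e-05) in endothelial-rich cells. Thinning these other endothelial-rich sums to the UMI totals of the dividing endothelial-rich cells left 184 calls, against the 21 of the dividing cells. The thinned sums still came from 203, 791, 223 and 412 cells, against 18, 134, 39 and 55 dividing cells. The 2 counts of calls are thus matched in UMIs but not in cells, and they do not compare the size of the genotype effect.

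**Figure D5:**
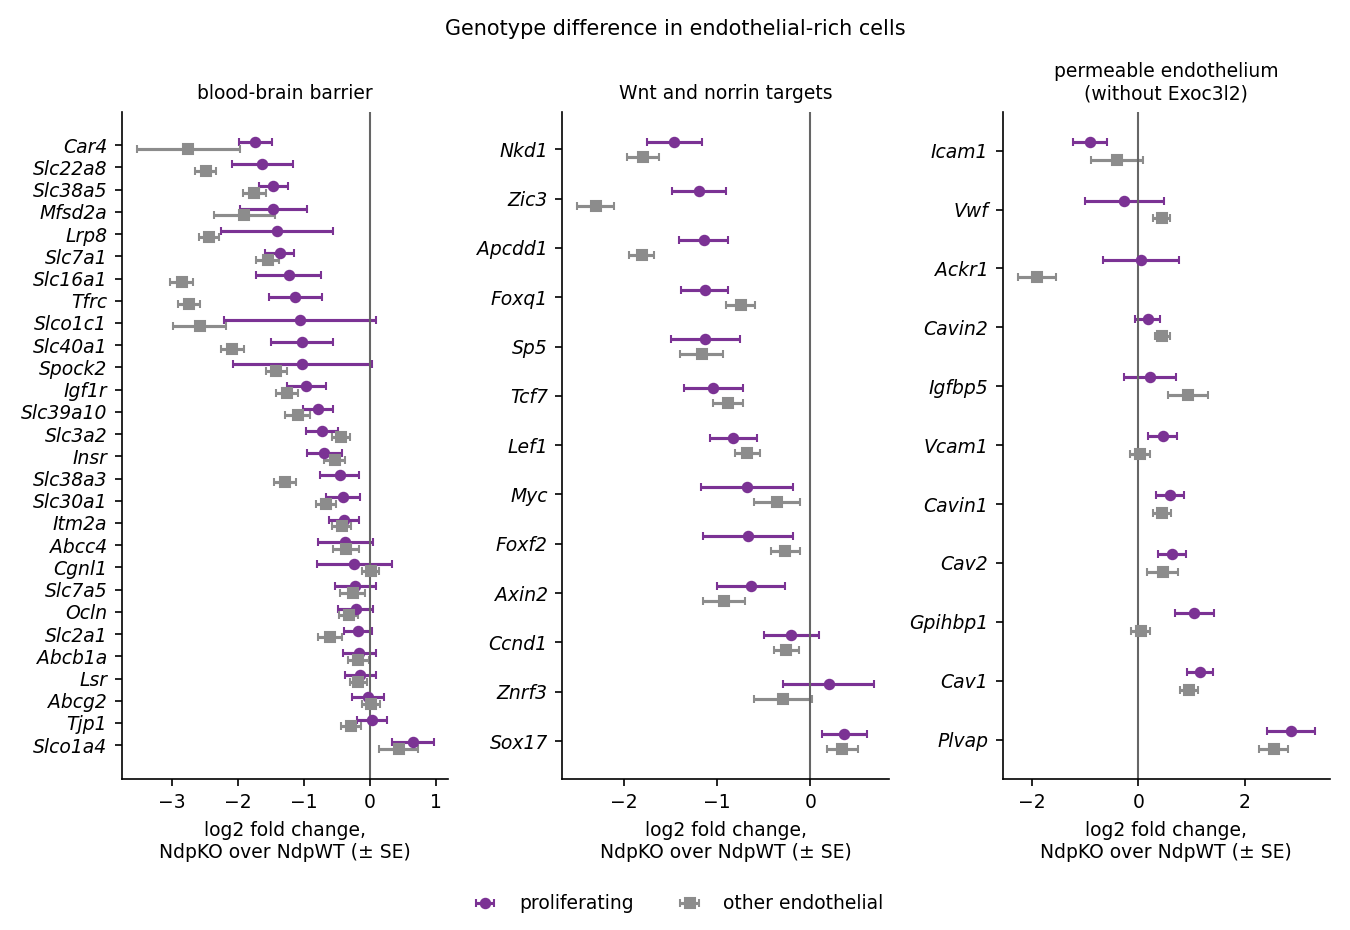
Log2 fold change of NdpKO over NdpWT (x axis, ± SE) in proliferating (circles) and other (squares) endothelial-rich cells for the blood-brain barrier, Wnt and norrin target and permeable endothelium lists. In proliferating cells 26 of 28 barrier genes and 11 of 13 targets lie below 0, and Plvap is farthest to the right at 2.86.

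Arterial genes showed no settled genotype difference in the dividing cells, and no gene of the G2 and mitosis or S phase lists passed with edgeR. Of 18 arterial genes 9 were above 0 and 9 below, with a median log2 change of 0.00409, and no gene separated the genotypes. In endothelial-rich members 16 of 18 were above 0 with a median of 0.57, but the median was -0.78 without NdpKO replicate 1 and 1.21 without NdpKO replicate 2, so 1 library decided the direction. Of 34 G2 and mitosis genes 31 were above 0 in the members as defined, with a median of 0.27, and none passed with edgeR or DESeq2. Without NdpKO replicate 2 that median was -0.05. Both knockout libraries lay above both control libraries in 11 of the 34 and below in 0, against 16.5% and 15.6% of all genes tested. In endothelial-rich members 28 of the 34 were above 0 with a median of 0.32, and none passed with edgeR. There the knockout libraries lay above in 19 and below in 1, against 17.4% and 15.9% of all genes tested. The members were chosen by 6 other genes of late division, so these counts are not free of that choice. All 6 were above 0 in endothelial-rich members, with a median log2 change of 0.453. In the other endothelial-rich cells all 6 were below 0, with a median of -1.2, as were 21 of 26 measured G2 and mitosis genes. The part of the choice of cells in the G2 and mitosis values was not tested. Of 30 S phase genes 11 were above 0 in the members as defined, with a median of -0.05 and none past the test.

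Beside these values, RNA of other cell types differed between the libraries. The fibroblast list summed to 6668, 3973, 7299 and 5544 UMIs per 1000000 in the members and to 316, 966, 1111 and 800 in endothelial-rich members. The macrophage list summed to 494, 86.5, 42.8 and 48.1 UMIs per 1000000 in the members, and hemoglobin and other erythroid genes to 637, 18153, 9896 and 4002. None of the 12 fibroblast genes, none of the 10 macrophage genes and none of the 5 erythroid genes measured in the members passed between genotypes, and the part of such RNA in the genotype values was not tested.

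A test of whether the genotype effect differed between dividing and other endothelial cells found no gene in the cells as defined, 0 of 12710 or 0.0% (edgeR, interaction of genotype and group of cells with library as a term). With no adjustment 376 genes had p under 0.05, and DESeq2 called 0 genes. In endothelial-rich cells 1 of 11170 passed (0.00895%), Ptgds, at 216, 375, 4241 and 1505 CPM in dividing cells and 772, 1848, 2559 and 1565 CPM in the others; its call was lost without NdpWT replicate 2 (edgeR adjusted p = 0.054). The change of Car4 in dividing cells differed from that in other cells by 0.98 ± 0.55 (SE; edgeR adjusted p = 1.00) on the log2 scale, and that of Plvap in endothelial-rich cells by 0.48 ± 0.41 (SE; edgeR adjusted p = 1.00). A smaller genotype effect in the dividing cells was therefore not shown by the larger count of genes in the others.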

How the data were processed

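Single-cell RNA was measured in 4 10x libraries, 2 of each genotype. The authors deposited whole-number UMI counts per gene and barcode, made with Cell Ranger 6.1.2 on mm10 per the submitters' processing notes; the lowest total per barcode was 500 UMIs. Members were found with Python 3.11.15, scanpy 1.11.5, numpy 2.4.6 and scipy 1.17.1, and counts were summed per library. Cells are not replicates, so sums were tested with edgeR 4.0.16 in R 4.3.3 (quasi-likelihood, robust, TMM, filterByExpr with a minimum count of 10), with Benjamini-Hochberg adjustment over all genes fitted and a threshold of 0.05. Where dividing and other cells are compared, genes of the definition and of the cell cycle lists are described without a test and left out of the shares over all genes tested. Cell cycle genes that another list also holds, Btg2, Ccnd1 and Myc, were still counted in that other list. Shares were compared by exact permutation of the 4 libraries. DESeq2 1.42.0 was the alternative. The edgeR procedure was checked on simulated data.

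The members and the gene lists were chosen with earlier results of these data known. Of 388 listed genes 384 were measured. Genes named outside the lists are the 10 higher and the 10 lower with the largest log2 change that passed and did not overlap between groups (for dividing against other cells, of 1 sign in 4 of 4 libraries with at least 20 CPM in 1 group), leaving out symbols of the Gm, Rik, mt-, Rpl and Rps kinds; some are given only by count. Members of the barrier, Wnt and norrin target, receptor complex and permeable lists that passed were also named, and further list members were named as examples after their values were seen. Scrublet called 1.70% to 2.59% of kept barcodes against an expected 10.3% to 15.3%, so doublets were not removed for the main values; removing its calls was an alternative. Other alternatives were no filter on low counts, library totals without TMM, each library left out, 2 or 4 of the 6 proliferation genes, at most 5% mitochondrial UMIs, thinned counts, all 8 sums in 1 fit and the replicate number as a block. Gene positions are from GENCODE M21 (GRCm38), where 32235 of 32285 features matched.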

Additional observations from a re-analysis of the deposited data

Results flagged for a closer look

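In endothelial-rich cells the genotype effect on Ptgds, the lipocalin-type prostaglandin D synthase that leptomeningeal fibroblasts make in quantity, differed between dividing and other endothelial cells by 2.45 ± 0.26 on the log2 scale (SE; edgeR interaction test, adjusted p = 0.00298). Without NdpWT replicate 2 the difference was 2.22 and the call was lost (edgeR adjusted p = 0.054). It stood at 216, 375, 4241 and 1505 CPM in the dividing cells of the 2 control and then the 2 knockout libraries, and at 772, 1848, 2559 and 1565 CPM in the other cells. The genotypes did not overlap in the dividing cells, and they did overlap in the others. In the members as defined, which also hold the barcodes of low endothelial content, Ptgds stood at 16224, 4505, 9553 and 9971 CPM, the genotypes overlapped and the difference of effects was -0.86. In the same endothelial-rich members the fibroblast list summed to 316, 966, 1111 and 800 UMIs per 1000000, and its part in the Ptgds values was not tested.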

How the results depend on the processing

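The count of genes that differed between genotypes in the members, 2 in all, was 26 with DESeq2, 143 with no filter on low counts, 10 with 2 proliferation genes required, 0 with 4, 1 with Scrublet calls removed, 1 without TMM, 92 with at most 5% mitochondrial UMIs and 0 with 8 sums in 1 fit. In endothelial-rich members it was 21, or 18 with DESeq2, and with each library left out 79, 138, 107 and 185; in the members as defined it was then 22 to 36. In the other endothelial cells the count of 23 became 104 with DESeq2, 396 with no filter, 315 in endothelial-rich cells, 184 in endothelial-rich cells thinned, and 11 to 690 with each library left out, or 237, 390, 278 and 463 in endothelial-rich cells. Between dividing and other cells the count of 1975 became 1292 with DESeq2, 989 with DESeq2 in endothelial-rich cells, 886 with cells thinned to 4000 UMIs, 595 with endothelial-rich cells thinned, and 1254 to 1699 with each library left out, or 1323, 934, 1324 and 1188 in endothelial-rich cells. The test of the difference of genotype effects, with 0 genes, gave 48 with no filter, 1 in endothelial-rich cells, 2 there with DESeq2, 7 with 2 proliferation genes, 8 with at most 5% mitochondrial UMIs and 0 to 17 with each library left out, or 12, 4, 73 and 33 in endothelial-rich cells. Leaving out a library leaves 1 sample in an arm, which is assumed to vary like the others.

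With the replicate number as a block, the members gave 224 genes, or 23 in endothelial-rich cells, and the other endothelial cells 637. Samples of the same number deviated together with a correlation of 0.189 in the members and 0.292 in the others over only 2 pairs, and the labels do not say that the number marks the litter match, so the samples share a number and no more. The share difference of 3.16 percentage points became -1.10 with 2 proliferation genes and ran from 0.163 to 6.15 with each library left out. Mt1, at 0.24, ran from -0.72 without NdpWT replicate 2 through -0.02 without NdpKO replicate 1 to 2.40 without NdpWT replicate 1. With 2 proliferation genes the difference between dividing and other cells turned to 0.50 for C1qa, 0.56 for Lyve1, 1.12 for Lyz2 and 0.13 for Mrc1. The Ptgds difference of -0.86 ran from -1.90 without NdpWT replicate 2 to 0.18 without NdpWT replicate 1, and was 2.51 with at most 5% mitochondrial UMIs, 2.45 in endothelial-rich cells, 2.44 there with DESeq2, and 2.64, 2.22, 2.11 and 2.85 there with each library left out in the order of the libraries; its call in endothelial-rich cells was lost without NdpWT replicate 2 (edgeR adjusted p = 0.054). The cause was not tested for any of these. Removing cells with markers of other cell types left 2 members of 18 endothelial cells; the share difference was then 29.2 percentage points, and the gene tests were not run. NdpWT replicate 1 was the library with the fewest member UMIs, 607654 over 25 cells.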
